A study of Mus musculus with 12 samples.

Results

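The genes described here are those that the array's annotation names Zfp followed by a number, the mouse names of zinc finger proteins, with the RNA-binding Zfp36 family left out. A gene was kept when at least 1 of its probes gave a spot well above background, by the scanner software's own mark, on all 12 arrays. The arrays carry 476 probes for 247 such names, and 373 probes of 221 genes met the condition, out of 19295 genes tested in all and 16509 that were well above background on all 12 arrays. The members were thus chosen by their brightness, that is by the scanner's above-background mark, so their levels are given as a description. The size of the response was no criterion, but the condition covers the 3 WT E2 arrays, so a gene that fell below background there could not enter. With the condition read on the other 9 arrays alone, a choice made after the data were seen, 6 more genes entered, and 103 of 227 (45.4%) were lower and 43 (18.9%) higher after E2 in WT. Among all genes above background on those 9 arrays 31.2% were lower and 20.6% higher. The 6 genes entered because they missed the mark on a WT E2 array, so falls among them follow in part from this choice.

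Whole uteri came from adult ovariectomized female mice of strain C57bl6/Jx129, at least 10 weeks old and rested for 10 to 14 days after surgery. They were injected with 100 ul of either saline or estradiol (E2, the main estrogen; no dose stands in the labels), and uteri were frozen 2 h after that. Wild-type (WT) mice carried normal Esr1, the gene of estrogen receptor alpha, and EAAE mice carried an Esr1 allele whose product, per the series title, is deficient in DNA binding. How the allele was made, and whether mice of both genotypes were littermates, is not given in the sources used here. The Esr1 level does not check the genotype labels, since an altered protein need not change its transcript. Each genotype was thus studied with saline and with E2, in 4 groups of 3 mice with 1 uterus per array, and the comparisons ask how the class responded to E2 in each genotype.

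Most Zfp proteins hold rows of C2H2 fingers, short loops around a zinc ion that each read a few bases of DNA, joined by a conserved linker. The largest subgroup adds a KRAB domain, which recruits the corepressor Trim28 and, through it, the histone methyltransferase Setdb1, and silences retroelements and imprinted genes. Such KRAB genes have multiplied by local duplication and lie in clusters of neighbours. Other members are single-copy regulators of differentiation, and a few act on RNA, ribosomes or ubiquitin. Estrogen receptor alpha itself is a zinc finger protein of the unrelated nuclear receptor type, and it can act by binding estrogen response elements in DNA or through other DNA-bound factors.

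Finger sequence recurs in a few of the probes themselves. A degenerate pattern of bases from the linker between adjacent fingers was searched on the printed strand only. It occurred in 7 of the 221 member probes (3.17%) and in 79 of all 41174 probes of the array (0.192%). The sequences of 5 such probes follow, 5′ to 3′, with the linker pattern in capitals. They were picked for holding the pattern, so their likeness does not describe the other member probes. Coordinates are those of the files (mm7).

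Zfp248, chr6:118454592-118454651: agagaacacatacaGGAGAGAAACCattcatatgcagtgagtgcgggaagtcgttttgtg

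Zfp72, chr13:71304043-71304102: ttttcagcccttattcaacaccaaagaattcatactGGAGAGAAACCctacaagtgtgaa

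Zfp97, chr17:15490861-15490920: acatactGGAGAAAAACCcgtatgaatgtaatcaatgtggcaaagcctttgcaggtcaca

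Zfp51, chr17:19644483-19644542: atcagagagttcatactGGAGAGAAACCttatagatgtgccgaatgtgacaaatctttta

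Zfp52, chr17:19743052-19743111: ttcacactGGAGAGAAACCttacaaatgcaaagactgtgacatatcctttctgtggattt

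Of these genes Zfp248, Zfp72 and Zfp97 fell after E2 in WT, by 1.11, 0.99 and 0.53 on the log2 scale. The neighbours Zfp51 and Zfp52 differed: Zfp51 changed by -0.17 (adjusted p = 0.285 by limma) and Zfp52 rose by 0.62. A run of 25 bases shared with a probe of another gene was found for 2 members, Zfp72 (with Zfp932) and Zfp97, so their signal may come from more than 1 transcript. For the other 219 genes no such shared run was seen among the array's probes, and sequences outside the array were not searched.

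In WT uteri a large share of the class was lower 2 h after E2. The counts and changes given here are those of each gene's brightest probe. Of the 221 members, 98 (44.3%) were lower and 43 (19.5%) were higher after E2, and 80 did not pass the test (limma over all genes, Benjamini-Hochberg adjusted p under 0.05, two-sided). Among all genes tested 29.8% were lower and 19.6% higher, and among the genes well above background on all 12 arrays 29.5% were lower and 21.5% higher. Falls of at least 2-fold were called for 31 members (14.0%, beside 6.15% of the genes above background on all arrays), and rises of that size for 3 (1.36%, beside 5.59%). The median change of the members was -0.22 on the log2 scale, with a range from -2.38 to 1.22, against -0.15 over all genes tested and -0.11 over those above background on all arrays.

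The 3 WT E2 arrays gave means over the 221 members of -0.44, -0.50 and -0.40 on the log2 scale, where 0 is the array's 75th percentile. All 3 lay below the WT saline arrays, at -0.25, -0.15 and -0.14. EAAE saline arrays gave -0.18, -0.16 and -0.10, and EAAE E2 arrays -0.16, -0.09 and -0.11, so the EAAE groups overlapped. Means over all genes above background on all arrays also lay lower in WT E2, at -0.108, -0.155 and -0.144. In WT saline those means were -0.082, -0.077 and -0.049, so the separation is not particular to the members. Each slide holds 4 arrays and was scanned once, and slides 1 and 3 hold both WT groups. Within slide 1 (1 array per group) the members' median WT difference was -0.14, and within slide 3 (2 saline arrays, 1 E2 array) it was -0.28, beside -0.08 and -0.14 for all genes above background on all arrays.

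Array scaling moved the WT medians. With the array median in place of the 75th percentile, the median over all genes went from -0.15 to -0.01 and that of the members from -0.22 to -0.09. Both scalings subtract 1 value per array, so the gap between members and all genes is the same by construction. Quantile scaling, which can move it, gave -0.22 for the members and -0.12 for all genes, with 42 members higher and 96 lower. With the array median 53 members were higher and 80 lower (36.2%), against 20.5% lower among all genes. The share of higher among the calls went from 30.5% to 39.8% in the members and from 39.6% to 53.2% over all genes.

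**Figure D1:**
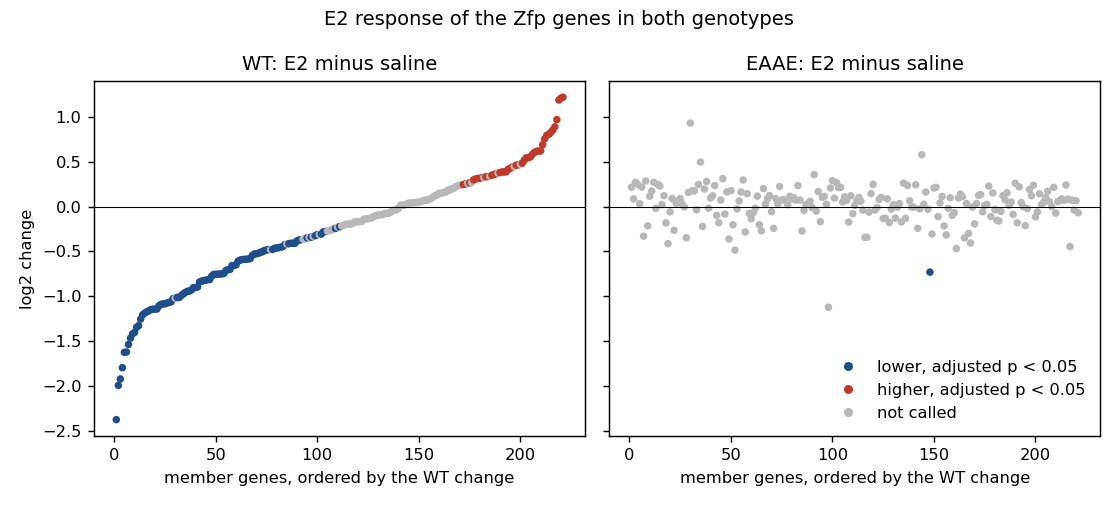
Log2 change after E2 (vertical axis) of the 221 Zfp genes in WT (left) and EAAE (right), with genes in the same order on both horizontal axes, from the largest WT fall to the largest WT rise; colour marks the test's call. In WT 98 genes are called lower and 43 higher, while in EAAE 1 gene is called and most points lie near 0.

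Zfp503, a transcriptional corepressor of developing limb and brain, showed the largest fall. Its log2 level was 3.84, 3.77 and 4.10 on the WT saline arrays and 1.59, 1.33 and 1.66 on the WT E2 arrays. EAAE saline arrays gave 3.67, 3.98 and 4.0, and EAAE E2 arrays 4.0, 4.26 and 4.04. Only the WT E2 group stood apart. Zfp503 was 5.20-fold lower after E2 in WT (log2 change -2.38, SE 0.14, adjusted p = 6.12e-07 by limma) and changed by 0.22 (SE 0.14, adjusted p = 0.465) in EAAE.

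Zfp608 lay at 0.03, 0.13 and -0.08 in WT saline and at -1.83, -2.44 and -1.63 in WT E2, a 3.99-fold fall (log2 change -2.0, SE 0.22, adjusted p = 4.07e-05 by limma). Its EAAE arrays were all higher than WT saline, at 0.66, 0.67 and 0.72 with saline and 1.04, 0.94 and 0.32 with E2. Both further probes of Zfp608 fell in WT too, by 2.46 and 1.75.

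Zfp94, a clustered C2H2 gene of chromosome 7, was at -1.62, -1.45 and -1.33 in WT saline and at -3.33, -3.65 and -3.19 in WT E2. That is a 3.79-fold fall (log2 change -1.92, SE 0.13, adjusted p = 1.34e-06 by limma). In EAAE it was -1.44, -1.36 and -1.39 with saline and -1.22, -0.98 and -1.18 with E2, above the saline arrays but not called (change 0.27, adjusted p = 0.322). Zfp99, now Zkscan14, which joins a SCAN dimerization domain to its fingers, went from 0.37, 0.56 and 0.58 to -1.17, -1.47 and -1.25 in WT, a 3.48-fold fall (log2 change -1.80, SE 0.12, adjusted p = 1.77e-06 by limma). In both genes the WT groups were far apart compared with their spread.

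Zfp551 was at 0.19, 0.31 and 0.64 in WT saline and at -1.13, -1.35 and -1.25 in WT E2, and fell 3.09-fold (adjusted p = 3.9e-06 by limma). Zfp688 fell 3.08-fold, from 0.99, 0.96 and 1.28 to -0.44, -0.79 and -0.42, and its other probe fell by 1.66. The rest of the 12 largest falls were Zfp324, Zfp78, Zfp40, Zfp354b, Zfp61 and Zfp120, with log2 changes from -1.54 to -1.33. None of the 12 was called in EAAE, where their changes ran from -0.33 (Zfp324) to 0.29 (Zfp78).

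**Figure D2:**
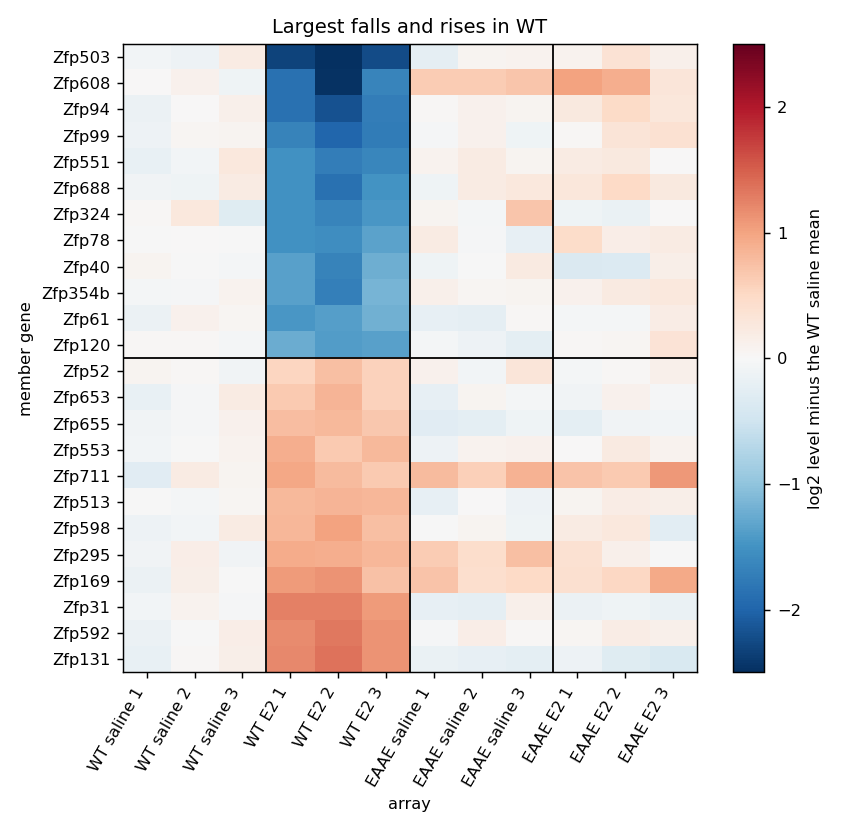
Log2 level of the 12 largest falls (above the line) and 12 largest rises (below it) on each of the 12 arrays, as colour, minus the gene's mean over the 3 WT saline arrays; columns are arrays in their 4 groups. The 3 WT E2 columns carry the falls and rises, while Zfp608, Zfp169, Zfp295 and Zfp711 are above the WT saline mean in EAAE saline as well.

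On the brightest probe of each gene, rises were fewer and smaller. Zfp131, a BTB-domain zinc finger protein whose human counterpart has been described as an inhibitor of estrogen receptor alpha signalling, led them. Its levels were 1.81, 2.02 and 2.13 in WT saline and 3.18, 3.34 and 3.11 in WT E2, a 2.33-fold rise (log2 change 1.22, SE 0.10, adjusted p = 7.63e-06 by limma). EAAE saline arrays gave 1.82, 1.78 and 1.75 and EAAE E2 arrays 1.85, 1.68 and 1.61, so these groups overlapped.

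Zfp592, which works in a chromatin complex with Zmynd8, went from 1.26, 1.40 and 1.57 to 2.59, 2.73 and 2.54 in WT, a 2.31-fold rise (log2 change 1.21, SE 0.10, adjusted p = 6.37e-06 by limma), and its other probe rose by 0.61. Zfp31, now Zscan20, rose 2.28-fold by its brightest probe, but its other probe, well above background on 11 arrays, changed by -0.05 (adjusted p = 0.849). Zfp169 rose by 0.97, Zfp295 (the BTB repressor Zbtb21) by 0.89, Zfp598 by 0.85 and Zfp513 by 0.83. The list ended with Zfp711, X-linked and known to recruit the histone demethylase Phf8, at 0.81, followed by Zfp553 (0.80), Zfp655 (0.76), Zfp653 (0.69) and Zfp52 (0.62). For Zfp553 the probes disagreed: 1 further probe rose by 0.80 and another fell by 0.94 (adjusted p = 0.00514), so its direction is uncertain.

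Several probes of a gene were read where the array had them. Of the 98 members called lower, 39 had 51 further tested probes, of which 48 had the same sign, 35 were also called lower and 0 were called higher. Of the 43 called higher, 24 had 34 further probes, of which 28 had the same sign, 15 were also called higher and 2 were called lower. Of the 80 members not called, 10 had a further probe called lower and 12 had one called higher. Larger rises than that of Zfp131 were seen on further probes of Zfp469 (4.33, brightest probe 0.22), Zfp451 (1.27, brightest probe 0.02) and Zfp52 (1.23). The brightest probe named Zfp469 is now matched to the gene Tnrc18, so whether both Zfp469 probes read the same gene is uncertain. The 2 probes that opposed a called rise were in Zfp553 and Zfp318, whose brightest probe rose by 0.27 while another fell by 1.16.

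**Figure D3:**
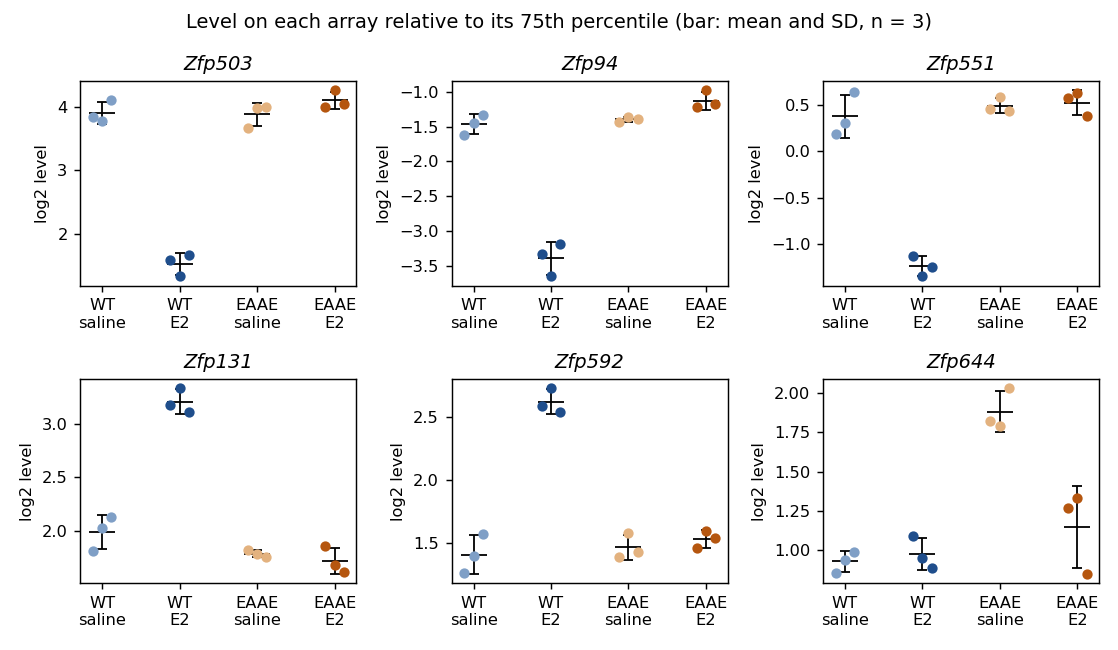
Log2 level relative to the array's 75th percentile (vertical axis) of 6 Zfp genes on each array of the 4 groups (horizontal axis); points are mice, and bars show the mean and SD of 3. For Zfp503, Zfp94 and Zfp551 the WT E2 points lie below all others, for Zfp131 and Zfp592 above all others, and for Zfp644 the EAAE saline points are the high ones.

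In EAAE uteri 1 member passed the test. Of the 221 members 0 were higher and 1 was lower (0.452%), where 0.684% of all genes tested were called higher and 0.757% lower. At an unadjusted p under 0.05, 19 members were higher and 17 lower, beside 1507 higher and 1577 lower of all 19295 genes tested. The members' median change was 0.05, against 0.02 over all genes, and the single changes ran from -1.12 to 0.93. Within slides 1 and 2, which hold both EAAE groups, the members' median was 0.004 and 0.074. The 3 EAAE E2 arrays all lay at position 4 of the slides and no other array did. The EAAE response and array position can thus not be fully told apart.

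The gene called in EAAE was Zfp644. Its levels were 1.82, 1.79 and 2.03 in EAAE saline and 1.27, 1.33 and 0.85 in EAAE E2, a 1.66-fold fall (log2 change -0.73, SE 0.13, adjusted p = 0.0292 by limma). In WT it was 0.86, 0.94 and 0.99 with saline and 1.09, 0.95 and 0.89 with E2. The EAAE saline arrays were thus the high group of the 4. Its further probes, 2 in number and well above background on all arrays, changed by -0.05 and -0.13 in EAAE, so the fall was seen by 1 probe of 3. The call was also lost in 10 of 22 alternative analyses, among them those without EAAE E2 replicate 1 (adjusted p = 0.0529) or without any 1 of the 3 EAAE saline arrays (0.0663, 0.0675 and 0.0921).

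The difference between the 2 responses was tested directly, as the EAAE change minus the WT change. It passed the test above 0 for 81 members (36.7%) and below 0 for 32 (14.5%), beside 22.3% and 15.0% of all genes tested, and its median was 0.28 against 0.15. The gaps above 0 were widest for Zfp503 (2.60, SE 0.19, adjusted p = 8.9e-06 by limma), Zfp94 (2.20), Zfp608 (2.08), Zfp99 (2.05) and Zfp688 (1.84). Among those below 0, Zfp295 (-1.34), Zfp131 (-1.29), Zfp31 (-1.23) and Zfp592 (-1.15) led. The count of 32 below 0 was 19 without WT E2 replicate 2, 19 without WT saline replicate 1 and 20 with the slide as a block. This comparison shares its arrays with both single responses, and with them the limit that all EAAE E2 arrays lay at 1 slide position.

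By role, differentiation factors contributed 19 members, of which 7 fell (36.8%), 2 rose (10.5%) and 10 were not called in WT, with a median of -0.19. The counts of each role list are read beside the 29.8% lower and 19.6% higher of all genes tested, and no difference between lists was tested. Besides Zfp503, the falls included Zfp217, an amplified oncogene of human breast tumours, at -1.06, and Zfp354a, a kidney-enriched KRAB protein, at -1.01. Zfp467, which governs the choice between fat and bone cells, fell by 0.75, Zfp64 by 0.54 and Zfp238 (Zbtb18, a repressor in developing neurons) by 0.52. Zfp521, a brake on adipocyte and a regulator of bone cell differentiation, fell by 0.41 (adjusted p = 0.0271 by limma). That call was lost with array-median scaling (-0.275, adjusted p = 0.143), with the slide as a block (0.0528) and with slide and position (0.0829). It was also lost without WT E2 replicate 2 (0.0696), WT E2 replicate 3 (0.0793), WT saline replicate 2 (0.0605) or WT saline replicate 3 (0.103). The counterpart of Zfp521, the preadipocyte factor Zfp423, changed by -0.13 (adjusted p = 0.35).

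The 2 differentiation factors that rose were Zfp281, which binds GC-rich promoters in stem cells, by 0.44 (adjusted p = 0.0094 by limma), and Zfp143, an activator of small nuclear RNA promoters, by 0.32 (0.00929). Zfp148, which binds similar GC-rich sites, changed by -0.19 (adjusted p = 0.223), although 1 of its 3 other probes fell by 0.99. In EAAE 0 of the 19 were called by limma, and 6 were lower at an unadjusted p under 0.05.

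Of 7 members that act on RNA, translation or ribosomes, 4 rose (57.1%), 1 fell (14.3%) and 2 were not called in WT, with a median of 0.34 against -0.15 over all genes, and in EAAE 0 of 7 were called (1 was higher at an unadjusted p under 0.05). Zfp598, a ubiquitin ligase that marks collided ribosomes, was at 2.07, 2.13 and 2.40 in WT saline and at 3.03, 3.20 and 2.95 in WT E2 (change 0.85, adjusted p = 0.000799 by limma). Zfp259 (Zpr1, a binding partner of translation elongation factor 1A) rose by 0.62, Zfp207 (BuGZ, a spindle protein that also acts in splicing) by 0.62, and Zfp622, a maturation factor of the large ribosomal subunit, by 0.34. For Zfp207, 1 further probe rose by 0.61 and another changed by -0.22. Zfp346, a binder of double-stranded RNA, fell by 0.48. Zfp106 was not called on its brightest probe (-0.09), but its further probes were called higher, at 0.27, 0.54 and 0.84. Of the listed genes that the files carry under another name, Zfp593 rose by 2.03 and Zfp830 by 0.67, while Zfp638 changed by 0.21 and was not called.

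Of the 4 members tied to ubiquitin, SUMO or the cytoskeleton, 1 rose in WT and 0 fell by limma (1 at an unadjusted p under 0.05). Zfp313, now the ubiquitin ligase Rnf114, was at 4.03, 4.13 and 4.23 in WT saline and at 4.67, 4.70 and 4.59 in WT E2 (change 0.52, adjusted p = 0.000245 by limma). Zfp451, a SUMO ligase, changed by 0.02 on its brightest probe, while its 3 other probes rose by 0.76 to 1.27, so its response depends on the probe. Zfp91, a ubiquitin ligase of the NF-kappaB pathway, changed by -0.14 and the actin-associated Zfp185 by -0.42, neither of them called.

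Factors known to silence imprinted genes or retroelements were thinly covered by the rule. Zfp445, which guards imprinted regions, was the only member of that list of 7, and it changed by 0.02 in WT (adjusted p = 0.914) and -0.24 in EAAE (0.326). Zfp57, the better known factor of this kind, was well above background on 10 arrays and is no member (change -0.42, adjusted p = 0.09). Of the listed genes that the files carry under another name, Zfp708 fell by 1.62 (adjusted p = 2.95e-05 by limma) and Zfp932 by 0.64 (0.0301), while Zfp809 changed by -0.02 (0.901) and Zfp819 by -1.04 (0.161).

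Of the 22 listed KRAB cofactors, 3 were higher (13.6%) and 3 lower (13.6%) in WT, beside 19.6% and 29.8% of all genes tested, with a median of -0.06, and 0 were called in EAAE (2 higher and 5 lower at an unadjusted p under 0.05). Trim28 changed by 0.19 in WT (adjusted p = 0.0775), Setdb1 by 0.10 (0.583). Atf7ip, the Setdb1 partner, fell by 1.05, and the heterochromatin proteins Cbx5 and Cbx3 fell by 0.39 and 0.33. The DNA methyltransferase Dnmt3b rose by 0.69. The 22 also count Zfp57, a Zfp factor described above rather than a cofactor, which was not called in WT or EAAE. With array-median scaling Trim28 was called higher (0.32, adjusted p = 0.0381), and Cbx3 and Cbx5 were not called.

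Names do not separate the class sharply from other zinc finger genes. In the RefSeq table, 192 of the members are still called Zfp, and of these 90 fell and 35 rose in WT. Another 6 are now Zbtb genes (3 higher, 3 lower), 11 are Zscan or Zkscan genes (1 higher, 3 lower) and 11 carry other names (4 higher, 1 lower). Zfp125, which fell by 0.46, was not matched to a current name. A further 97 genes above background on all arrays are Zfp genes in that table under another name in the files, a set defined after the files were read. Of these, 60 (61.9%) were lower and 9 (9.28%) higher, with a median of -0.52. Among 32 further genes now named Zbtb, whose BTB domain takes the place of KRAB, 28.1% were lower and 34.4% higher. Of 17 Zc3h genes, whose CCCH fingers bind RNA, 11.8% were lower and 41.2% higher. Of 7 further Zscan or Zkscan genes 4 were lower and 2 higher. No test was made between these name families.

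**Figure D4:**
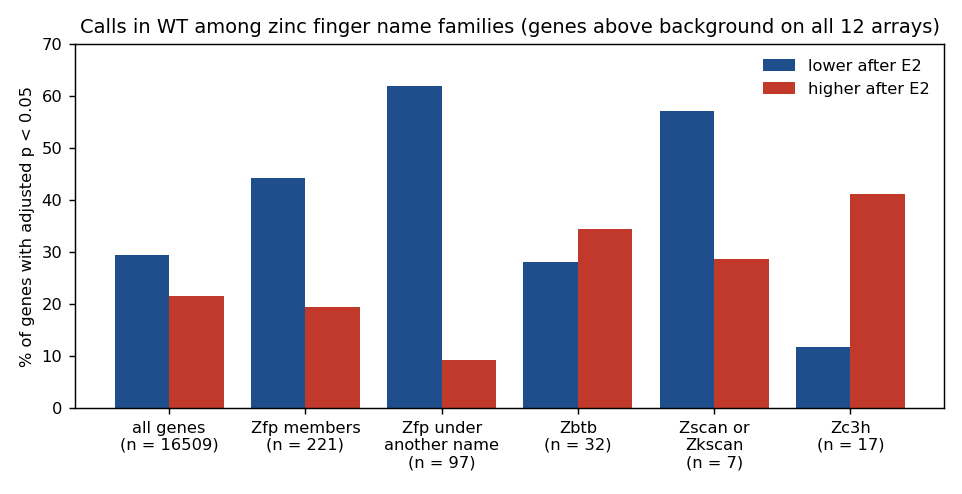
Share of genes called lower or higher after E2 in WT (vertical axis, percent, from 0) for all genes above background on all 12 arrays, the Zfp members and 4 other sets of zinc finger genes (horizontal axis, n under each name). Falls outnumber rises among the members (44.3% against 19.5%) and the Zfp genes filed under another name (61.9% against 9.28%), while rises outnumber falls for Zbtb and Zc3h.

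Counts by chromosome, as the files place the brightest probe, are set beside all genes well above background on the same chromosome, with no test of the difference. Chromosome 7 held 54 members, of which 31 (57.4%) fell and 9 rose in WT, beside 31.1% lower and 20.5% higher among all genes there. On chromosome 17 (19 members) 11 fell (57.9%, beside 28.0% of all genes there) and 3 rose, and on chromosome 13 (13 members) 8 fell (61.5%, beside 33.6%) and 1 rose. Chromosome 9, with 11 members, had 0 falls by limma (1 at an unadjusted p under 0.05) and 4 rises, beside 29.8% lower among all its genes. That 0 holds for the brightest probes only: Zfp26, Zfp291 and Zfp609 there each had at least 1 further probe called lower, at -0.72 and -0.61 for Zfp26, -0.42 for Zfp291 and -1.86 for Zfp609. Zfp560 was counted apart, since the files place its brightest probe (-0.17, not called) on chromosome 10. The order of genes in the RefSeq table puts Zfp560 on chromosome 9 beside Zfp26, and the runs below use that order. Its 2 further probes were called lower, at -1.41 and -1.15. Runs of at least 3 members with gaps of at most 3 other genes were read from the order of genes in the RefSeq table. The 12 such runs held 51 members, of which 28 fell (54.9%) and 5 rose (9.8%), and among the other 170 members 70 fell (41.2%) and 38 rose (22.4%). The 5 runs on chromosome 7 held 27 members, with 21 falls and 0 rises. That 0 too holds for the brightest probes only. Zfp146 in these runs changed by 0.47 on its brightest probe, not called, and a further probe was called higher (0.43, adjusted p = 0.00475 by limma).

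The longest run, on chromosome 7 from Zfp180 to Zfp94, had 9 members, of which 7 fell and 0 rose, with a median WT change of -0.90 and a median EAAE change of 0.10. Within it Zfp61 fell by 1.35, Zfp93 by 0.90, Zfp235 by 0.90 and Zfp108 by 0.82. Neighbours could also part. On chromosome 17 Zfp53 fell by 1.15 next to Zfp52, which rose. Zfp54 beside them fell by 0.41, a call lost with array-median scaling (adjusted p = 0.141) and without WT E2 replicate 1 (0.104), WT E2 replicate 2 (0.104), WT saline replicate 1 (0.0999) or WT saline replicate 2 (0.0566). On chromosome 5 Zfp99 and Zfp95 fell by 1.80 and 0.45, next to Zfp655, which rose by 0.76. Neighbouring members are duplicates of each other in part and are not independent of each other.

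Promoters were read as the 250 bases before the annotated start in the RefSeq table (GRCm38.p6), which matched 173 of the 221 members with 225 windows. Motifs were searched on both strands. They were the estrogen response element half-site GGTCA, the full element (a half-site and its reverse complement TGACC with any 3 bases between them, so that it holds half-sites too), the GC box GGGCGG bound by Sp1, the AP-1 site TGANTCA, the CRE TGACGTCA and the E-box CACGTG. The full element was in 0 member windows and in 21 of all 32851 windows (0.0639%). Half-sites were in 33.3% of the windows of members that fell, 38.3% of those that rose and 35.2% of all windows.

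The GC box was in 36.3% of the windows of members that fell, 59.6% of those that rose, 53.9% of those not called and 32.7% of all windows. Median GC content was 55.6%, 60% and 61.2% in the first 3 sets and 52.4% overall. These shares are descriptions: windows of 1 gene overlap, and a match is not a bound site. Among the 12 largest falls, 9 genes had a window and 1 of them, Zfp78, held a GC box. Among the 12 largest rises, 11 had a window and 8 held one, while Zfp31, Zfp169 and Zfp653 held none. A fall and a rise without a box and a fall and a rise with one are shown, picked after the matches were seen so that both outcomes can be read. They run 5′ to 3′ on the gene's strand, with GC boxes on either strand in capitals.

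Zfp94 (fell), chr7:24316667-24316916, minus strand: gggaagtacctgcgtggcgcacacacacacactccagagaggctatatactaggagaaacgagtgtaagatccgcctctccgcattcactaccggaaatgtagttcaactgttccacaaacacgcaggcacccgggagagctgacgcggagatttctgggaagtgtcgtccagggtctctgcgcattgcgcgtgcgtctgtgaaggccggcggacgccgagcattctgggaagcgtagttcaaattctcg

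Zfp78 (fell), chr7:6363058-6363307, plus strand: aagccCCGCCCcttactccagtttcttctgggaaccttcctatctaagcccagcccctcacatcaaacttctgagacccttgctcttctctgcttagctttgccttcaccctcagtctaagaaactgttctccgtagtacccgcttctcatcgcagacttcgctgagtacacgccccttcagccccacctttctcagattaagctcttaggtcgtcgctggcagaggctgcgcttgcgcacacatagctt

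Zfp653 (rose), chr9:22071377-22071626, minus strand: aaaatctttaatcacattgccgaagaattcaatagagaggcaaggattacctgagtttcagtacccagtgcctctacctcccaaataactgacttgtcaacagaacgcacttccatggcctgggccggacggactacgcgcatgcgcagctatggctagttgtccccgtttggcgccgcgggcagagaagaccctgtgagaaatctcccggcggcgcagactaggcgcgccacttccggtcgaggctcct

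Zfp592 (rose), chr7:80993434-80993683, plus strand: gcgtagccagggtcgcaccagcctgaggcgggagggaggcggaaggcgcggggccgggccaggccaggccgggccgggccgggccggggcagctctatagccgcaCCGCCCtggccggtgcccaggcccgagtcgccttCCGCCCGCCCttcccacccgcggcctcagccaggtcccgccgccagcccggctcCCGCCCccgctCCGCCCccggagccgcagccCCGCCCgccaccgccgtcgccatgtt

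**Figure D5:**
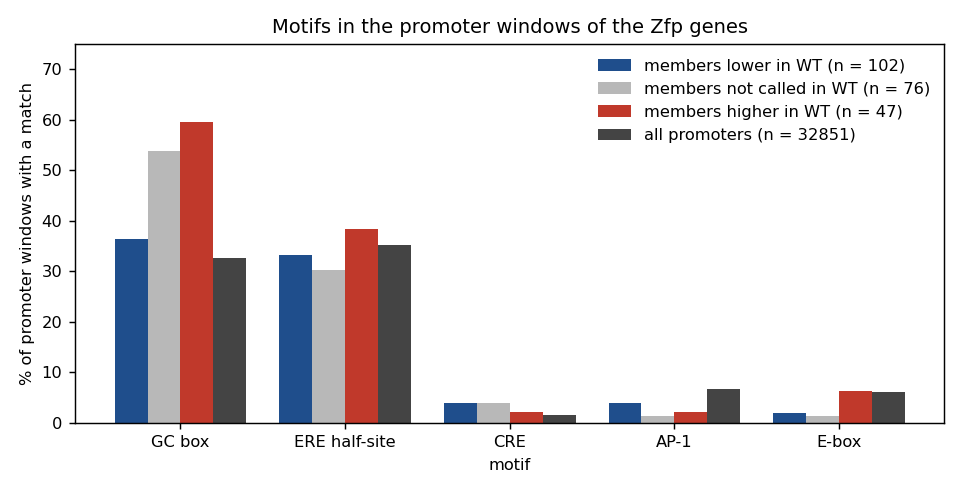
Share of promoter windows (vertical axis, percent, from 0) with a match to each of 5 motifs (horizontal axis), for members that fell, were not called or rose in WT and for all promoters of the table. The GC box is in 36.3% of the windows of members that fell and in 59.6% of those that rose, while half-site shares lie between 30.3% and 38.3%.

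Without hormone the genotypes differed too. In EAAE saline against WT saline 27 members (12.2%) were higher and 18 (8.14%) lower, where 14.5% and 15.1% of all genes tested were called (the difference between these shares was not tested), and the members' median difference was 0.01. With the slide as a block 17 were higher and 6 lower, and with slide and position on it 2 and 0. The WT saline arrays lay at positions 1 and 2 and the EAAE saline arrays at positions 2 and 3. The lower calls numbered 8 without WT saline replicate 2 and 8 without WT saline replicate 3, and the higher calls 17 without WT saline replicate 1. Only Zfp711 was called higher in all 22 alternatives, with levels of -4.47, -3.98 and -4.13 in WT saline and -3.41, -3.60 and -3.32 in EAAE saline (difference 0.75, SE 0.16, adjusted p = 0.00572 by limma).

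Zfp185 differed most, from 0.04, -0.68 and -0.51 in WT saline to 1.03, 1.03 and 1.34 in EAAE saline, and its other probe differed by 1.26. Zfp7 was 1.97-fold higher in EAAE saline, and its 4 other probes differed by 0.51 to 0.79, though slide and position together left 0.87 with an adjusted p of 0.087. Zfp644 was 1.93-fold higher on its brightest probe and differed by -0.03 and -0.09 on the others. For Zfp533, now Zfp385b, a difference of 1.26 came from a probe well above background on 11 arrays, and the probe that met the rule gave 0.38 (adjusted p = 0.253).

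After E2, 104 members were higher and 42 lower in EAAE E2 than in WT E2, with a median of 0.26, beside 33.5% higher and 24.5% lower among all genes tested. Zfp608 was 6.66-fold, Zfp503 5.97-fold and Zfp94 4.79-fold higher in EAAE E2. With slide and position in the fit the counts were 56 and 16. Position 4 of the slides held the 3 EAAE E2 arrays, and no array of WT E2.

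The uterus is a mixture of cell types, so fewer cells of a type and less RNA per cell cannot be told apart in these values. All 9 uterine and smooth muscle markers were measured, and their summed level, of which smooth muscle actin (Acta2) makes the largest part, was 7.23 to 8.06 over the 12 arrays. Of the 9, 3 were lower in WT, namely Hoxa10 (-1.45), Hand2 (-1.17) and Hoxa11 (-0.97), and Pgr, the progesterone receptor, was higher (1.94), while in EAAE Hand2 was higher (0.69). Of 10 adipocyte markers, all measured, 9 were lower after E2 in WT (median -3.15) and 0 were called in EAAE (1 was higher at an unadjusted p under 0.05). Their summed log2 level was 4.89 to 7.66 in WT saline, 1.95 to 4.74 in WT E2, 5.33 to 7.78 in EAAE saline and 5.93 to 8.20 in EAAE E2. Macrophage markers were lower for 2 of 7 in WT, with a summed level of 6.61 to 7.28 in saline and 5.95 to 6.29 with E2. In EAAE it was 4.87 to 5.42 with saline, below every WT saline array, and 4.90 to 6.89 with E2, and between the genotypes under saline 2 of the 7 were lower in EAAE and 1 higher. Lymphocyte markers summed to 0.95 to 1.31 in WT saline and 0.40 to 0.58 in EAAE saline, also without overlap. All 3 measured ovary or oviduct markers were lower after E2 in WT. Of these Foxj1, above background on 9 arrays, changed by -0.89 (adjusted p = 0.0492 by limma) and in EAAE by -0.82 (0.268). Under saline Foxj1 (-3.775) and Star (-0.647) were lower in EAAE, and Ovgp1 was not called. Of 5 skeletal muscle markers 1 was lower after E2 in WT, and under saline 3 were higher and 1 lower in EAAE. Whether these cells carry part of the members' response or of the genotype differences was not tested.

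Just inside the rule, the dimmest members were Zfp179, Zfp217, Zfp354b and Zfp711, whose lowest array values were -5.25, -4.59, -4.50 and -4.47. Just outside were Zfp334, Zfp454 and Zfp59, above background on 11 arrays, with lowest values of -5.48, -5.75 and -5.63. Of the 26 names left out, 12 were still tested and 14 were not, 9 of the latter above background on 0 arrays. Of the 12, 7 were lower and 0 higher in WT by limma (0 higher at an unadjusted p under 0.05). Among all genes tested 29.8% were lower and 19.6% higher. The 12 entered the fit through a group where they were bright and missed the rule through another. Their count is thus shaped by the filter and says nothing about the class. A gene that drops below background in 1 group cannot be a member, so strong falls of dim genes, such as Zfp750 (-2.53 in WT, above background on 9 arrays), lie outside the counts given here.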

How the data were processed

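Per the file headers, the authors scanned 12 single-colour Agilent arrays and extracted spots with Feature Extraction 9.5.3.1, which the submitters' processing notes give as 9.5. The deposited intensity is the linear processed signal, corrected for background within the array and not scaled between arrays. Per array the median signal was 162.5 to 249.5, and 64.0 to 74.0% of the non-control spots were well above background. From 56 to 117 outlier spots were left out and 3 to 5 saturated spots kept. Arrays give no counts, so 3 mice per group limit the precision.

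From the deposited intensity, log2 values minus each array's 75th percentile were computed and spots of a probe averaged. A probe entered the fit if 1 group or more had it well above background on each of its arrays (29008 of 41174), and the brightest probe stood for a gene. The test was limma 3.58.1 (R 4.3.3; lmFit and eBayes, 4 group means over 12 arrays), with Benjamini-Hochberg adjustment over 19295 genes and a threshold of 0.05. In simulated data for the WT comparison (19295 genes), changes of 0.5, 1 and 2 on the log2 scale were put into 67, 67 and 66 genes. They were recovered for 20.9, 73.1 and 93.9% of those. In the WT data 3776 genes were called higher and 5750 lower, so the adjustment met another setting and these rates do not carry over. Alternatives changed the scaling, background, probe filter, probe choice, slide or replicate block, arrays in the fit, or left out each array in turn.

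Named genes were the 12 largest rises and 12 largest falls in WT with groups apart, every EAAE call, the 8 largest differences in each direction between responses and between genotypes under saline, up to 4 genes with the smallest p per role list, and a fixed set. Others named (further probes, neighbours, genes at the rule's edge) were chosen after their values were seen. The members and lists were chosen with earlier results of these data known. Current names and promoters come from RefSeq (GRCm38.p6) and probe coordinates from the files (mm7). Figures used matplotlib 3.10.9.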

Additional observations from a re-analysis of the deposited data

Results flagged for a closer look

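The E2 responses of EAAE and WT differed, by the test of the difference itself (limma, adjusted p under 0.05), for 39 of the named genes. Values are EAAE change minus WT change on the log2 scale. The widest positive differences were those of Zfp503 (2.60), Zfp94 (2.20), Zfp608 (2.08), Zfp99 (2.05), Zfp688 (1.84), Zfp78 (1.75), Zfp551 (1.66), Zfp120 (1.60) and Zfp61 (1.52). Next came Zfp354b (1.52), Zfp661 (1.21), Zfp324 (1.21), Zfp40 (1.21), Zfp239 (1.20), Zfp354a (1.19), Zfp533 (0.73), Zfp184 (0.73) and Zfp217 (0.71). Smaller ones were found for Zfp125 (0.58) and Zfp346 (0.50). Negative differences were led by Zfp295 (-1.34), Zfp131 (-1.29), Zfp31 (-1.23), Zfp592 (-1.15), Zfp169 (-0.90), Zfp644 (-0.78), Zfp598 (-0.77), Zfp711 (-0.74) and Zfp553 (-0.71). The remaining ones were those of Zfp52 (-0.69), Zfp655 (-0.69), Zfp653 (-0.63), Zfp207 (-0.62), Zfp513 (-0.59), Zfp281 (-0.46), Zfp259 (-0.41) and Zfp313 (-0.38). Of the KRAB cofactors, Atf7ip gave 0.67 and Dnmt3b -0.53. Zfp533, Zfp553, Zfp31, Zfp207 and Zfp644 had further probes with another response.

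Some of these calls were lost when 1 array was left out (adjusted p above 0.05 by limma), and the arrays are named here by group and replicate. Dnmt3b lost it without EAAE E2 3, EAAE saline 2 or 3, WT E2 2, WT saline 1 or 2 (value -0.52 to -0.43, adjusted p 0.0557 to 0.0688). Zfp207 lost it without EAAE E2 3, EAAE saline 1, WT E2 2 or 3, WT saline 1 or 2 or 3 (value -0.64 to -0.48, adjusted p 0.0531 to 0.0773). Zfp217 lost it without EAAE E2 1 or 2, EAAE saline 1 or 2, WT E2 1, WT saline 3 (value 0.58 to 0.69, adjusted p 0.0518 to 0.063). Zfp259 lost it without WT E2 2 or 3, WT saline 1 (value -0.38 to -0.37, adjusted p 0.0502 to 0.054). Zfp281 lost it without EAAE E2 1 or 2, EAAE saline 1 or 3, WT E2 1 or 2 or 3, WT saline 1 or 2 or 3 (value -0.51 to -0.39, adjusted p 0.0518 to 0.111). Zfp346 lost it without EAAE E2 2 or 3, EAAE saline 1 or 2, WT E2 1 or 2 or 3, WT saline 2 or 3 (value 0.40 to 0.50, adjusted p 0.0504 to 0.0683). Zfp533 lost it without EAAE E2 1 or 2, EAAE saline 2 or 3, WT E2 1 or 2, WT saline 2 or 3 (value 0.60 to 0.71, adjusted p 0.0839 to 0.107). Zfp711 lost it without EAAE E2 1 or 2, EAAE saline 1 or 3, WT E2 1 or 2, WT saline 1 (value -0.74 to -0.60, adjusted p 0.0508 to 0.0598).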

How the results depend on the processing

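In WT 73 of the 98 members called lower and 20 of the 43 called higher were called the same way under all 22 alternatives, and for the difference between responses 57 of 81 and 16 of 32 under 21. With slide and position in the fit, 22 members were higher in WT and the median was -0.28. The WT median was -0.09 with array-median scaling and -0.27 with the mean of probes. In EAAE the count of lower members was 0 with no filter, with only the groups compared, with the slide block and with slide and position, and 2 with the mean of probes, with normexp and with probes above background on all 12 arrays. For the difference between responses, 20 were lower with the slide block, and the median was 0.19 with array-median scaling. Under saline, EAAE against WT, the slide block gave 17 higher and 6 lower, slide and position 2 and 0 with a median of -0.054, and 10, 11 and 11 were lower with array-median scaling, no filter and only the groups compared. After E2, slide and position gave 56 higher, 16 lower and a median of 0.20, and array-median scaling a median of 0.18. The cause of these shifts was not tested.

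Leaving out 1 array gave 34 to 46 higher and 83 to 100 lower in WT (median -0.25 to -0.22), 0 higher and 0 to 1 lower in EAAE (0.02 to 0.08), 68 to 84 higher and 19 to 30 lower for the difference (0.24 to 0.32), 17 to 27 and 8 to 22 under saline (-0.02 to 0.05), and 92 to 109 and 36 to 47 after E2 (0.23 to 0.29). Signs turned for Zfp282 (EAAE against WT under saline, 0.018 with the mean of probes, adjusted p = 0.924) and Zfp533 (difference between responses, -0.18 with probes above background on all 12 arrays, adjusted p = 0.702). The replicate block gave 42 higher and 100 lower in WT. Same-numbered arrays had correlations of deviations from -0.28 to 0.27, so the numbers were not taken to pair mice. The planned split of members by KRAB box and finger count was not run, because no protein sequences were used here. The arrays' background limits dim genes, which the membership rule leaves out. Membership read without the WT E2 arrays, an alternative chosen after seeing the data, gave 43 higher (18.9%) and 103 lower (45.4%) in WT. Of all genes read in that way 20.6% were higher and 31.2% lower.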
